A study of Triticum aestivum with 10 samples.

Results

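A set of 58 of the 37826 wheat array probes had a much higher signal in leaf after long cold than in leaf at 23 °C, and did so to a similar extent in a wild-type and a necrotic line of synthetic wheat. The level of a probe is the log2 of its processed signal minus the log2 of the 75th percentile of all probes on the same array, and group levels are means of 2 arrays. To be counted, a probe had to be well above background on all 4 cold leaf arrays. Its level in cold leaf of each line had to be at least 3.5 (11.3-fold) above the necrotic leaf at 23 °C. The necrotic minus wild-type difference had to lie within 1, which is 2-fold, in cold leaf and also in cold shoot, and the wild-type leaf and shoot had to differ by under 5, which is 32-fold. These limits were set on the same measurements that are described here, so the rise, the line differences and the tissue differences of the 58 probes are given as descriptions and not as tests.

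The plants were synthetic hexaploid wheat, that is, bread wheat rebuilt from a cross of tetraploid wheat and Aegilops tauschii. One line had the wild-type phenotype and the other showed cold-induced hybrid necrosis, a disorder of some hybrids in which tissue dies after growth in the cold. Their total RNA was measured on 10 one-colour Agilent arrays with Cy3 label, 2 for each of 5 groups. The question put by the design was how transcript levels in the necrotic line differ from those in the wild-type line, at normal temperature and in the cold. All plants spent their first 3 weeks at 23 °C. Leaf of the necrotic line was sampled then, leaf of both lines after 12 further weeks at 4 °C, and shoot containing the apical meristem from both lines after 6 weeks at 4 °C. None of the 10 samples was leaf of the wild-type line at 23 °C. The rise in the wild-type line is therefore counted from the necrotic leaf and contains any difference between the lines at 23 °C. The 2 arrays of a group are labelled as replicates. The series' design text describes independent experiments, and the labels do not name the plants behind each array.

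Wheat that grows for weeks at low but non-freezing temperature acclimates to cold. CBF transcription factors switch on cold-responsive genes, whose products include dehydrins and other late embryogenesis abundant proteins that protect membranes and proteins when freezing draws water from cells, and leaves store fructans. The same weeks of cold bring the shoot apex through vernalization, in which the gene VRN1 becomes active and the meristem gains the ability to flower. In hexaploid wheat most genes exist as homoeologous copies in the A, B and D genomes, and a probe can take signal from more than one copy.

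No table used here pairs these probes with genes, and none of the 58 names was found in the reference gene table, so the probes are given by the names on the array and no role is assigned to them. Of the 58, 31 were named as contigs of the wheat0130 collection (53.4%, against 36.9% of all probes) and 11 as wh or rwh clones or contigs (19.0%, against 38.6%). A further 7 were MUGEST2003 contigs (12.1%, against 20.1%) and 5 were MUG clones (8.62%, against 3.48%). Of the other names, 2 look like sequence accessions (3.45%, against 0.106%), 2 contain a gi number (3.45%, against 0.629%), and 0 are gene names. Each of the 58 names occurred once on the array, and 0 members shared a contig with another member. Markers of leaf and of meristem could not be matched either, so the labelled tissues were not checked against them.

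The 2 arrays at 23 °C were on 1 slide, the 4 shoot arrays on another and the 4 cold leaf arrays on the third, per the file headers. Temperature, plant age, slide and scan therefore changed together and cannot be told apart, and tissue changed together with the weeks of cold and the slide. Each line comparison lay within 1 slide. In RNA from whole tissue, fewer cells of a type and less RNA per cell cannot be told apart. The 75th percentile of the signal was 789.5 and 807.7 on the 23 °C arrays and 1539 to 1901 on the other 8, and between 28487 and 32630 probes were well above background.

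The limits removed probes in steps. Of 28658 probes well above background on all 4 cold leaf arrays, 317 met the rise in both lines. Among those 317, the necrotic leaf was over 1 higher than the wild-type leaf for 90 and over 1 lower for 25, which left 202. The limit on the shoot lines left 69, and the limit on leaf against shoot left 58. The last limit alone kept out 11 probes, 8 of them higher in leaf and 3 higher in shoot. The shoot line limit alone kept out 83, of which 56 were higher in the necrotic shoot and 27 lower. Shares of all tested probes beyond the same limits are not given, so nothing is read from how these counts split by direction. At the rise limit, the smaller of the 2 rises was 3.57 for wheat0130Contig12752 and 3.61 for wheat0130Contig482, both inside, and 3.47 for MUG020D06R990620 and 3.43 for rwhoh1l14, both outside. At the other limits, M93342 was inside with a leaf line difference of 0.999 and wheat0130Contig8387 outside with a difference of 1.08 in size. For the shoot lines, wheat0130Contig6045 was inside at 0.99 and wheat0130Contig9867 outside at 1.04 in size. For leaf against shoot, rwhyd17i17 was inside at 4.86 in size and MUGEST2003_23lib_Contig8355_1040 outside at 5.02.

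Across the 58 probes the median level was -7.16 in necrotic leaf at 23 °C (range -9.48 to 0.64). It was -1.44 in wild-type cold leaf (-5.18 to 4.81) and -1.46 in necrotic cold leaf (-5.08 to 5.19). In the cold shoot the medians were -1.12 for the wild-type line (-8.11 to 6.38) and -1.32 for the necrotic line (-7.82 to 6.33). At 23 °C, 2 of the 58 levels were above the array's 75th percentile, and in the 4 cold groups 18, 19, 19 and 20 were. Agreement between the 2 arrays was close: the median SD of a level (n = 2) was 0.107 at 23 °C and 0.042 to 0.045 in the cold groups.

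With any 23 °C signal below the lowest detected one raised to it, the rise had a median of 4.16 on the log2 scale in the necrotic line (2.11 to 7.34) and 4.25 in the wild-type line (2.02 to 8.03). These values are lower bounds for the members not detected at 23 °C, and some fall under the limit of 3.5, which was applied to the signals as measured. For all 58 probes both cold leaf arrays of each line were above both 23 °C arrays. Such separation was seen in the necrotic line for 36.9% and in the wild-type line for 37.2% of all tested probes. In a limma fit across all probes, 57 of the 58 were called higher in necrotic cold leaf at an adjusted p under 0.05, against 31.6% of the 33045 tested probes called higher. The members were chosen on this contrast, so nothing is read from these counts. The median difference of all tested probes was -0.18 in this comparison, and -0.48, -0.055 and -0.065 after normexp background correction, quantile normalization and median scaling.

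How much of the rise was measured depended on the signal at 23 °C. Of the 58 probes, 26 were well above background on both 23 °C arrays, 4 on 1 array and 28 on neither, beside 85.4%, 2.32% and 12.3% of all tested probes. The rise limit favours probes with a low 23 °C signal, so nothing is read from this contrast. The 26 detected probes had levels of -6.67 to 0.64 at 23 °C (median -3.72) and of -2.64 to 4.9996 in cold leaf (median 1.74). Their rises were 11.8- to 157-fold in the necrotic line (median 24.7) and 12.6- to 242-fold in the wild-type line (median 25.4). The 28 probes not well above background on either 23 °C array reached a median of -3.82 in cold leaf (-5.08 to 0.35). For these a bound was taken against the lowest signal of a detected probe on each 23 °C array. Cold leaf was at least 4.33- to 162-fold higher in the necrotic line (median bound 12.1) and at least 4.05- to 262-fold higher in the wild-type line (median bound 10.51). For 12 of the 28 both bounds reached 3.5 on the log2 scale, and for the other 16 at least one bound was below it.

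Among the 26 probes detected on all 10 arrays, wheat0130Contig14728 and MUGEST2003_23lib_Contig24900_572 had the largest mean rises over both lines. In the necrotic line alone wheat0130Contig13402, singled out after its values were seen, had a larger one, 157-fold. The level of wheat0130Contig14728 was -5.05 and -4.94 at 23 °C, 2.95 and 2.90 in wild-type cold leaf, 2.17 and 2.18 in necrotic cold leaf, 0.55 and 0.47 in wild-type shoot, and -0.31 and -0.20 in necrotic shoot. Its 5 groups did not overlap, and it was lower in the necrotic line in both tissues. The rise was 7.17 in the necrotic line (144-fold) and 7.92 in the wild-type line (242-fold). For MUGEST2003_23lib_Contig24900_572 the values were -3.63 and -3.52 at 23 °C, 3.99 and 4.02 in wild-type leaf, 3.61 and 3.63 in necrotic leaf, 2.58 and 2.56 in wild-type shoot, and 2.74 and 2.84 in necrotic shoot. All 8 cold arrays were above both arrays at 23 °C, with rises of 147-fold in the necrotic and 192-fold in the wild-type line.

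The smallest mean rises of the 26 belonged to MUG016C06R990620 and MUG021G06R990620, 2 clones with a sizeable signal already at 23 °C. MUG016C06R990620 stood at 0.63 and 0.64 at 23 °C, 4.26 and 4.32 in wild-type leaf, 4.38 and 4.35 in necrotic leaf, 3.40 and 3.41 in wild-type shoot, and 4.20 and 4.19 in necrotic shoot. Every cold array was higher than both at 23 °C, and the necrotic leaf was 13.3-fold and the wild-type leaf 12.6-fold above it. MUG021G06R990620 gave -0.07 and -0.03 at 23 °C, 3.57 and 3.70 in wild-type leaf, 3.69 and 3.63 in necrotic leaf, 3.38 and 3.39 in wild-type shoot, and 3.88 and 3.91 in necrotic shoot. The leaf values of the lines overlapped, those of the shoot did not, and the leaf folds were 13.1 and 12.8 in the necrotic and wild-type line.

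MUG018C12R990529 and MUG002E09R990520 had the highest cold leaf signal of the 26, where signals of different probes do not rank transcript amounts. MUG018C12R990529 went from -0.62 and -0.55 at 23 °C to 4.62 and 5.005 in wild-type leaf and 5.21 and 5.17 in necrotic leaf, and stood at 3.59 and 3.60 in wild-type and 4.17 and 4.14 in necrotic shoot. MUG002E09R990520 went from -2.19 and -2.13 to 4.29 and 4.47 in wild-type leaf and 4.99998 and 4.9996 in necrotic leaf, and stood at 2.87 and 2.93 in wild-type and 3.27 and 3.24 in necrotic shoot. Both probes were higher in leaf than in shoot and higher in the necrotic than in the wild-type line, with no overlap. The leaf folds were 54.6 and 42.2 for the first and 143 and 93.1 for the second, in the necrotic and wild-type line.

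The lowest cold leaf signals of the 26 were those of rwh31n11 and rwhyf20h22. The level of rwh31n11 was -6.62 and -6.72 at 23 °C, -3.03 and -2.88 in wild-type leaf, -2.31 and -2.32 in necrotic leaf, -4.89 and -4.91 in wild-type shoot, and -5.15 and -5.21 in necrotic shoot. That of rwhyf20h22 was -6.30 and -6.23 at 23 °C, -1.88 and -1.71 in wild-type leaf, -2.46 and -2.50 in necrotic leaf, -1.73 and -1.67 in wild-type shoot, and -1.61 on both necrotic shoot arrays. The necrotic leaf was the higher one for rwh31n11 and the lower one for rwhyf20h22, and in neither case did the leaf arrays of the lines overlap.

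Of the probes not well above background at 23 °C, wheat0130Contig2757 and wheat0130Contig14105 had the largest bounds. The signal of wheat0130Contig2757 gave -8.85 and -8.76 at 23 °C, both below detection, then 0.84 and 0.83 in wild-type leaf, -0.15 and -0.14 in necrotic leaf, -3.81 and -3.87 in wild-type shoot, and -4.17 and -4.24 in necrotic shoot. Leaf was far above shoot in both lines, and the wild-type line was above the necrotic line in both tissues without overlap. In the processed signal its cold leaf was at least 133-fold higher than leaf at 23 °C in the necrotic line. In the wild-type line it was at least 262-fold higher. These bounds do not cover other background corrections: the mean log2 rise of wheat0130Contig2757 over both lines was 9.16 as measured and 3.66 with normexp. For wheat0130Contig14105 the arrays gave -7.81 and -7.19 at 23 °C, -0.63 and -0.48 in wild-type leaf, 0.12 and 0.17 in necrotic leaf, 1.55 and 1.56 in wild-type shoot, and 2.08 and 2.07 in necrotic shoot. Here shoot was above leaf and the necrotic above the wild-type line, and the bounds were at least 162-fold in the necrotic and at least 99.9-fold in the wild-type line.

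Near the rise limit, wheat0130Contig12752 was measured on all arrays, and wheat0130Contig482 was detected on 1 of the 2 arrays at 23 °C. The level of wheat0130Contig12752 was -1.47 and -1.56 at 23 °C, 2.39 and 2.41 in wild-type leaf, 2.06 and 2.04 in necrotic leaf, 5.04 and 5.005 in wild-type shoot, and 5.59 and 5.56 in necrotic shoot. Its groups did not overlap and the shoot was the higher tissue, with leaf folds of 11.8 and 15.1 in the necrotic and wild-type line. For wheat0130Contig482 the levels were -8.16 and -6.79 at 23 °C, -3.85 and -3.87 in wild-type leaf, -3.68 and -3.60 in necrotic leaf, -7.73 and -7.90 in wild-type shoot, and -6.81 and -7.04 in necrotic shoot. Its 23 °C arrays differed more from each other than the lines did in leaf, and its shoot arrays overlapped the range of those at 23 °C.

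A single array at 23 °C put MUGEST2003_23lib_Contig5313_931 into the set, a probe singled out after its values were seen. Its level was -1.36 and -7.44 on the 23 °C arrays (SD 4.30, n = 2), -0.35 and -0.30 in wild-type leaf, -0.50 and -0.57 in necrotic leaf, 0.33 and 0.12 in wild-type shoot, and -0.23 and -0.21 in necrotic shoot. Without the second 23 °C array the smaller of its rises was 0.83 and it no longer qualified. It was also the only member not called in the limma fit of necrotic leaf at 4 °C against 23 °C. Other members also depended on a single 23 °C array. With the first left out, the smaller rise was 2.93 for wheat0130Contig482 and 3.21 for rwhe18e04. With the second left out, it was 3.25 for MUGEST2003_23lib_Contig723_408. The probe whf12c01, likewise chosen after its values were seen, had shoot values of -5.63 and -9.15 in the wild-type line (SD 2.49, n = 2) and -7.64 and -8.00 in the necrotic line, and was well above background on 1 array of each. The scanner software marked the first wild-type shoot spot as an outlier; without it the shoot line difference was 1.33 and the probe was outside the limit.

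The cold shoot of either line was also set against the necrotic leaf at 23 °C, although tissue, age and slide changed along with temperature. For the 26 members detected on both 23 °C arrays, the shoot minus 23 °C leaf difference had a median of 5.06 for the wild-type line (1.27 to 10.23) and 4.75 for the necrotic line (1.49 to 10.18). Over all 58, with signals as measured, both shoot arrays were above both 23 °C leaf arrays for 55 members in the wild-type line, against 50% of all tested probes, and for 57 in the necrotic line, against 50.3%. The members were chosen for a low level at 23 °C and the limits keep the wild-type difference above -1.5, so nothing is read from these counts.

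Leaf and shoot at 4 °C were compared within each line. In the limma fit, 51 members were called different between wild-type leaf and shoot, against 88.1% of all tested probes, 31 of them higher in leaf and 20 lower, against 39.4% and 48.7%. In the necrotic line 54 were called, against 83.4%, 29 higher in leaf and 25 lower, against 34.5% and 48.9%. The median leaf minus shoot difference of the members was 0.25 in the wild-type and 0.13 in the necrotic line, beside -0.22 and -0.24 for all tested probes. The choice of probes high in cold leaf favours leaf in this comparison, and the limit of 5 in the wild-type line bounds it.

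Sorted by a difference of at least 1 in both lines, 24 members were higher in leaf (14.4% of all tested probes were), 14 were higher in shoot (26.6%) and 12 lay within 1 of each other in both lines (35.7%). The remaining 8 fell into different classes in the lines. The 24 leaf-high members were 2.18- to 20.7-fold higher in leaf than in shoot (median 5.51), and the 14 shoot-high members 2.61- to 28.3-fold higher in shoot (median 6.18). Well above background on both 23 °C arrays were 10 of the 24, 7 of the 14, 5 of the 12 and 4 of the 8. The median leaf minus shoot difference of all tested probes moved from -0.23 to -0.035 with normexp, 0.13 with quantile normalization and 0.18 with median scaling. In the same order of settings, 20, 26 and 26 members were leaf-high, against 11.8%, 20.8% and 21.4% of all tested probes. Shoot-high were 14, 13 and 11, or 24.1%, 22.4% and 19.0% of the members, against 15.9%, 19.1% and 19.9%, so that their share was below that of all probes with the 75th percentile and with median scaling and above it in the other settings. Within 1 were 13, 10 and 11, against 52.4%, 35.3% and 34.1%.

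The largest leaf excess among the 26 fully detected probes was that of MUGEST2003_23lib_Contig2349_512. Its level was -3.41 and -3.42 at 23 °C, 2.02 and 2.01 in wild-type leaf, 1.45 and 1.40 in necrotic leaf, -2.13 and -2.16 in wild-type shoot, and -1.70 and -1.74 in necrotic shoot. Leaf was 12.6-fold above shoot over both lines, the groups did not overlap, and the necrotic line was the lower one in leaf and the higher one in shoot. Its leaf rise was 28.6-fold in the necrotic and 43.1-fold in the wild-type line. wheat0130Contig14728, described above, followed with 5.36-fold more in leaf. Among all 58, the excess of wheat0130Contig2757 was 20.7-fold.

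Among the members detected on all arrays, the opposite end was held by MUG021E11R990620 and wheat0130Contig8816. MUG021E11R990620 gave -3.94 and -3.76 at 23 °C, 1.84 and 1.83 in wild-type leaf, 1.78 and 1.63 in necrotic leaf, 6.40 and 6.35 in wild-type shoot, and 6.35 and 6.31 in necrotic shoot. Shoot was 23.9-fold above leaf, and the leaf rise was 47.1-fold in the necrotic and 51.5-fold in the wild-type line. The arrays of the lines were apart in leaf and overlapped in shoot. wheat0130Contig8816 gave -5.76 and -6.16 at 23 °C, -1.19 and -1.09 in wild-type leaf, -1.99 and -2.07 in necrotic leaf, 1.98 and 2.01 in wild-type shoot, and 2.03 and 1.92 in necrotic shoot. Shoot was 11.9-fold above leaf, and the lines were apart in leaf but overlapped in shoot. Among members not detected at 23 °C, rwhyd17i17, chosen after its values were seen, was 28.3-fold higher in shoot, from -5.09 and -5.01 in wild-type and -5.01 and -4.90 in necrotic leaf to -0.15 and -0.22 in wild-type and -0.14 and -0.21 in necrotic shoot.

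Among the members detected on all arrays, nearest to equal in leaf and shoot were MUG021G06R990620, given above, and wheat0130Contig6045. The level of wheat0130Contig6045 was 0.20 and 0.24 at 23 °C, 4.00 and 4.06 in wild-type leaf, 4.20 and 4.23 in necrotic leaf, 3.77 on both wild-type shoot arrays, and 4.74 and 4.78 in necrotic shoot. For both probes leaf was above shoot in the wild-type line and below it in the necrotic line, so a mean near 0 stood for opposite differences. These were 0.25 and -0.24 for MUG021G06R990620. Its mean of 0.0068 became 0.18 with quantile normalization and 0.42 with median scaling. The mean leaf minus shoot difference of wheat0130Contig6045 was -0.14, and turned to 0.16 with quantile normalization and 0.27 with median scaling.

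Alike in both lines meant within 2-fold, not equal. The necrotic minus wild-type difference had a median of 0.10 in leaf and 0.18 in shoot, and its median size was 0.41 in both tissues. It was within 0.5 for 33 members in leaf and for 35 in shoot. The standard error of a line difference in the limma fit had a median of 0.083 (0.039 to 1.68). The necrotic leaf was called higher for 20 members and lower for 14, against 24.3% and 29.4% of all tested probes. The necrotic shoot was called higher for 23 and lower for 10, against 32.3% and 36.2%. The limits of 1 bound all of these, and whf12c01 entered the shoot fit with 1 wild-type array. The arrays of the lines did not overlap for 50 members in leaf, 32 of them higher in the necrotic line, and for 49 in shoot, 31 of them higher. Of all tested probes 75.4% did not overlap in leaf, 34.1% being higher in the necrotic line, and 87.6% in shoot, 41.1% being higher.

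The line difference had the same sign in leaf and shoot for 33 of 58 members (51.2% of all tested probes), 23 higher and 10 lower in the necrotic line. By the calls, 9 members were higher and 4 lower in both tissues, against 10.2% and 11.3% of all tested probes. A further 5 were higher in leaf and lower in shoot (9.16% of all tested probes) and 6 were lower in leaf and higher in shoot (10.3%). Called in leaf alone were 10 (12.6%), in shoot alone 9 (27.3%) and in neither 15 (18.9%). The 9 higher in both include whf12c01, whose shoot difference was 1.33 in the fit without its outlier spot and -0.43 from the means of both arrays. Whether the line difference itself changed with tissue was also fitted: it was called for 31 members (64.8% of all tested probes), higher in leaf for 13 (32.1%) and lower in leaf for 18 (32.7%). It ranged from -1.40 to 1.84 where the limits allow up to 2 in size.

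At the upper edge of the leaf limit were the 2 probes whose names have the form of an accession. M93342 gave -3.03 and -3.01 at 23 °C, 1.46 and 1.48 in wild-type leaf, 2.45 and 2.49 in necrotic leaf, 3.27 and 3.23 in wild-type shoot, and 3.32 and 3.29 in necrotic shoot. The necrotic leaf was 1.999-fold above that of the wild-type line, with a difference of 0.999 ± 0.039 (SE) in leaf and 0.057 in shoot. The leaf rise was 45.1-fold in the necrotic and 22.5-fold in the wild-type line. AB076807 gave -5.11 and -5.16 at 23 °C, -0.32 and -0.26 in wild-type leaf, 0.72 and 0.68 in necrotic leaf, 2.65 and 2.73 in wild-type shoot, and 3.29 and 3.17 in necrotic shoot. It was higher in the necrotic line in both tissues, by 0.99 ± 0.057 (SE) in leaf and 0.54 ± 0.057 in shoot, and shoot was 6.76-fold above leaf. The rise was 57.1-fold in the necrotic and 28.8-fold in the wild-type leaf.

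In the other direction, wheat0130Contig8816 was lower in the necrotic leaf by a difference of -0.89 ± 0.12 (SE), with a shoot difference of -0.018. wheat0130Contig14728 was lower in both tissues, by -0.75 ± 0.061 in leaf and -0.76 ± 0.061 in shoot, which left 0.013 ± 0.086 between the tissues. In shoot, wheat0130Contig6045 was 1.99-fold and wheat0130Contig9685 1.98-fold higher in the necrotic line, each with a difference of 0.99 that was just inside the limit. The levels of wheat0130Contig9685 were -4.06 and -3.89 at 23 °C, 1.83 and 1.82 in wild-type leaf, 1.77 and 1.82 in necrotic leaf, 1.14 and 1.04 in wild-type shoot, and 2.08 and 2.07 in necrotic shoot. The lines had nearly equal values in leaf and did not overlap in shoot, and the rise was 54.5-fold in the necrotic and 55.6-fold in the wild-type leaf.

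The line difference turned over between tissues for wheat0130Contig11062. Its level was -6.26 and -6.20 at 23 °C, -1.37 and -1.32 in wild-type leaf, -0.40 and -0.33 in necrotic leaf, -1.26 and -1.11 in wild-type shoot, and -1.96 and -1.85 in necrotic shoot. The necrotic line was 0.98 ± 0.069 (SE) higher in leaf and had a difference of -0.73 ± 0.069 in shoot, with no overlap in either. A contig named whfl_allContig32, chosen after its values were seen, had the widest such gap of the 58, 1.84 ± 0.20 (SE). It gave -9.53 and -9.42 at 23 °C, below detection, -4.42 and -4.33 in wild-type leaf, -3.50 on both necrotic leaf arrays, -5.72 and -6.18 in wild-type shoot, and -6.87 and -6.97 in necrotic shoot.

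The 2 members with a gi number were dim and not detected at 23 °C. For ncbi_gi_19032274_3934 the levels were -9.28 and -9.16 at 23 °C, -3.75 and -3.72 in wild-type leaf, -3.09 and -3.51 in necrotic leaf, -6.36 and -6.71 in wild-type shoot, and -6.34 and -6.41 in necrotic shoot. It was higher in leaf than in shoot, and its cold leaf was at least 14.9-fold in the necrotic and at least 10.99-fold in the wild-type line above leaf at 23 °C. For ncbi_gi_7529652_2700 they were -8.41 and -8.45 at 23 °C, -4.24 and -4.14 in wild-type leaf, -3.88 and -3.87 in necrotic leaf, -2.25 and -2.22 in wild-type shoot, and -1.94 and -1.73 in necrotic shoot. It was higher in shoot and higher in the necrotic line, with bounds of at least 9.99-fold and at least 8.02-fold.

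The array carries 6 probes with gene names, and 0 of them were members. Wcor15, which encodes a cold-responsive protein of the chloroplast, met the rise and the leaf line limit but missed the limits on shoot. Its level was -4.88 and -4.91 at 23 °C, -0.78 and -0.71 in wild-type leaf, -0.057 and -0.062 in necrotic leaf and -5.98 and -6.05 in wild-type shoot, and neither array of necrotic shoot was well above background. The wild-type leaf was 5.27 above the wild-type shoot, just over the limit of 5. RD29B, named after a desiccation-responsive gene of Arabidopsis, was detected in every group and stood at -6.32 ± 0.16 (SD, n = 2) at 23 °C, -6.46 ± 0.017 in wild-type leaf and -6.78 ± 0.16 in necrotic leaf. The probes RD29A, cor47, DREB2A and DREB2B were detected on 0 of the 10 arrays.

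The rises were smaller in a setting that took the median spot signal with normexp background correction and an offset of 50 in place of the processed signal, which changes several steps at once. There the smaller of the 2 rises reached 3.5 for 14 of the 58 members, had a median of 1.97 and was not above 0 for 5. The 14 members that met every limit under normexp as well were all among the 26 detected on all 10 arrays. The offset is added to every spot, which limits the rise that a dim probe can show. Its part in these counts was not tested. With quantile normalization and median scaling the smaller rise stayed at or above 3.5 for all 58.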

How the data were processed

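Cy3-labelled cRNA of total RNA was hybridised to one-colour Agilent arrays, 1 array per sample, per the labels' protocols. The scanner files that the authors deposited give each spot's intensity on a linear scale. Agilent Feature Extraction is named in version 10.5.1.1 by the files themselves, per the file headers, and in version 9.5 per the submitters' processing notes. The processed signal is not scaled between arrays. The deposited series matrix holds intensity equal to that processed signal (largest relative difference 0 over 39243 features), so its scale is linear and uncentred, with no direction to settle. Its column medians were 104.8 and 106.3 for necrotic leaf at 23 °C, 212.6 and 189.5 for wild-type and 196.4 and 186.5 for necrotic cold leaf, and 301.2, 292.6, 316.1 and 305.7 for the shoot arrays.

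Control spots were left out. Levels were computed from the deposited intensity as log2 minus the array's 75th percentile, with Python 3.11.15. The set was chosen with outlier spots kept, as its definition has none removed. In the fit, spots marked as outliers (12 to 143 per array) were missing, which touched 1 member. Tested were the probes that some group showed well above background on both its arrays. R 4.3.3 with limma 3.58.1 (lmFit, eBayes) fitted 1 mean per group over all 10 arrays (5 residual and 1.56 prior degrees of freedom, median residual SD 0.078). Two-sided p-values were adjusted after Benjamini-Hochberg across all tested probes, 33045 to 33096 per comparison, and a call is an adjusted p under 0.05. The script was tested on simulated data. No array had a saturated spot, and the number of arrays, 2 per group, limits the precision. The labels do not name separate plants, so p-values measure the spread between the arrays of what the series' design text calls independent experiments.

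Where neither array of a group showed a probe well above background, its fold is a bound. It holds for the processed signal only, and smaller rises were found with normexp. On each such array the probe's signal, or the lowest detected signal if that was higher, was averaged, and the brighter group's mean was divided by it.

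The members and the naming rule were chosen with earlier results of these data known. Named were, among members detected on all arrays, those with the extreme rises, cold leaf levels, tissue differences and called line differences (2 at each end), the 2 nearest 0 between tissues, the 2 undetected at 23 °C with the largest bounds, those next to the rise limit, and every member with an accession or gi number or probe with a gene name. The gene lists and markers that had been written down matched no member, because 0 probe names were found in the reference gene table (assembly IWGSC CS RefSeq v2.1). Alternatives were normexp correction with an offset of 50, quantile and median scaling, other limits, other filters, other fits and each array left out; normexp used the median signal, since the scanner tables hold no mean signal.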

Additional observations from a re-analysis of the deposited data

Results flagged for a closer look

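The necrotic minus wild-type difference changed with tissue for 31 members by limma's test of that difference at an adjusted p under 0.05: it was higher in leaf for 13 and lower in leaf for 18. These values are held within 2 in size by the limits on the line differences, and 64.8% of all tested probes passed the same test. Of the probes named for their line differences, 6 were among them. Leaf minus shoot, the line difference was 0.94 ± 0.055 (SE) for M93342, 0.45 ± 0.080 for AB076807 and 1.70 ± 0.097 for wheat0130Contig11062. It was -0.87 ± 0.17 for wheat0130Contig8816, -0.80 ± 0.058 for wheat0130Contig6045 and -1.02 ± 0.091 for wheat0130Contig9685. The slides held 1 tissue each, and the part of the slide in these values was not tested.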

How the results depend on the processing

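The rule gave 58 probes and its count moved with several settings. It was 16 with normexp correction, of which 14 were among the 58, and 101 or 37 with a rise limit of 3 or 4, and 19 with line limits of 0.5. It was 64 with quantile normalization (52 shared), 62 with median scaling (56 shared), 41 with dim 23 °C signals raised to the lowest detected signal, and 57 with outlier spots missing, a setting added after the data were seen. Without each array in turn it was 54 to 62, and 44 of the 58 stayed in all 10 of these. The normexp setting also took the median in place of the processed signal, and the cause of its move was not tested. Filtering to probes well above background on all 10 arrays left 26 members to test, so that fewer could be called: 26 for temperature (81.7% of all probes tested under this filter), 20 for the leaf lines (61.2%), 20 for the shoot lines (74.6%), 25 and 26 for leaf against shoot in the wild-type and necrotic line (89.8% and 85.1%), and 18 for the difference between tissues (71.2%). Without each array in turn the calls were 57 to 58, 26 to 29, 28 to 30, 50 to 52, 51 to 53 and 26 to 29, in the same order; of all tested probes 71.4% to 72.2%, 45.2% to 54.2%, 60.3% to 61.5%, 84.6% to 87.3%, 78.1% to 79.5% and 58.3% to 65.4% were called. By the other settings the total calls stayed within 1.5 times, with 55 for temperature under normexp, 1 of them lower. By direction, members with a line difference higher in leaf went from 13 to 20 under normexp, and those lower in necrotic shoot from 10 to 16 when only the groups compared were fitted. All 22 probes named by the naming rule kept a mean rise over both lines above 0 under each of the 3 other scalings, from 0.33 to 6.45 with normexp. Probes singled out after their values were seen were not in this check. Over all 58, the smaller of the 2 rises was not above 0 for 5 members under normexp.

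Samples of different groups share replicate numbers. Differences between replicates 1 and 2 correlated at -0.0095 to 0.058 across groups, so any shared effect of the replicate number was weak. Such correlations cannot show whether samples with the same number came from the same experiment. With the replicate number as a block, the calls were 57, 33, 32, 52, 53 and 30, in the order above, against 76.7%, 53.7%, 68.2%, 87.9%, 83.3% and 64.7% of all tested probes. Slide as a block was not run, because each line comparison lies within 1 slide and temperature and tissue change with the slide. Signal near background limits the 32 members not detected on both 23 °C arrays, and another detection rule (signal above the lowest detected one) put 28 in place of 26 above it.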
